A study of Tupaia belangeri with 6 samples.

Results

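The genes described here encode the subunits of the NMDA receptor (GRIN1, GRIN2A, GRIN2B, GRIN2C, GRIN2D, GRIN3A and GRIN3B) and the delta receptor subunit GRID1, in the prefrontal cortex (PFC) of the tree shrew. They were taken by gene name, 8 names in all among 95863 loci of the expression tables, and gene-like copies (names ending in li and a number) were left out of the set. A row was found for 6 of the 8 names, 1 row per library each: GRIN1, GRIN2A, GRIN2B, GRIN2C, GRIN3A and GRID1. No row carries the name GRIN2D or GRIN3B. GRIN1 was the most abundant subunit transcript, at 388 ± 174 TPM (SD, n = 6), and the named GRIN2B row was the lowest, at 1.89 ± 1.86 TPM (SD, n = 6). No subunit gene passed the test between females and males.

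The NMDA receptor is a glutamate-gated cation channel that is blocked by magnesium at rest and lets calcium in when glutamate binding coincides with depolarization. Each receptor holds the obligatory GluN1 subunit, which GRIN1 encodes and which binds the co-agonist glycine or D-serine, together with GluN2 subunits that bind glutamate (GRIN2A to GRIN2D) or with GluN3 subunits that bind glycine (GRIN3A and GRIN3B). In mammalian cortex GRIN2B is the main GluN2 gene of early development and GRIN2A rises as synapses mature, so their ratio is often followed. Delta receptors such as that of GRID1 belong to the same family by sequence but act mainly as synaptic organizers, linked across the synapse to neurexins by cerebellins.

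The study profiled PFC of adult Tupaia belangeri, a small mammal close to primates, in 3 females (numbered 1, 3 and 4) and 3 males (numbered 1, 4 and 5), and the labels name no genotype, strain or treatment. Poly(A) RNA of each animal was sequenced as 1 library. The study's sample list gives every male a greater age than every female, so sex and age cannot be told apart here. The values are TPM (transcript abundance scaled for transcript length and for the library total). The expression tables hold no read counts or read totals, so they leave the number of reads behind each value unknown. Their only measure of depth is the coverage of each locus.

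The tissue label was checked against markers. The neuronal genes SNAP25 and SYT1 stood at 3088 to 4861 and 705 to 1096 TPM, and the cortical excitatory genes SLC17A7 and TBR1 at 783 to 1569 and 183 to 343 TPM. Of the marker lists, 4 of 5 neuronal and 3 of 5 excitatory genes had a row (RBFOX3 and NRGN were among those with none). The 3 markers of cerebellar granule cells summed to 4.65 to 8.54 TPM. RGS9, a gene enriched in striatal projection neurons, stood apart in female 1, female 3 and male 1, at 43.7 to 54.6 TPM against 0.355 to 1.52 TPM in the other libraries. DRD1, the only other of 6 striatal markers with a row, held 1.20 to 7.06 TPM and did not follow that split, with male 4 above male 1. SLC17A6, the vesicular glutamate transporter gene of thalamus and brainstem, was also highest in female 1, female 3 and male 1. It held 8.43, 11.3 and 13.7 TPM there, against 1.11 to 3.85 TPM in the other libraries. The cause of this split was not tested. The blood markers summed to 1275 to 2542 TPM in the females, with the males at 62.7 to 101 TPM, and loci without an assigned strand held 2.30% to 7.88% of each library's TPM.

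GRIN1, the obligatory subunit gene, lies on chromosome 2 at 95459839-95464217 on the plus strand in the TS_3.0 build. Its level was 523, 602 and 143 TPM in females 1, 3 and 4, and 229, 433 and 398 TPM in males 1, 4 and 5. Female 4 and male 1 were low and the other libraries high, so the spread lay within the sexes, which overlapped. The coefficient of variation over the 6 libraries was 44.9%, against a median of 42.9% over 21702 autosomal genes above 1 TPM.

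**Figure D1:**
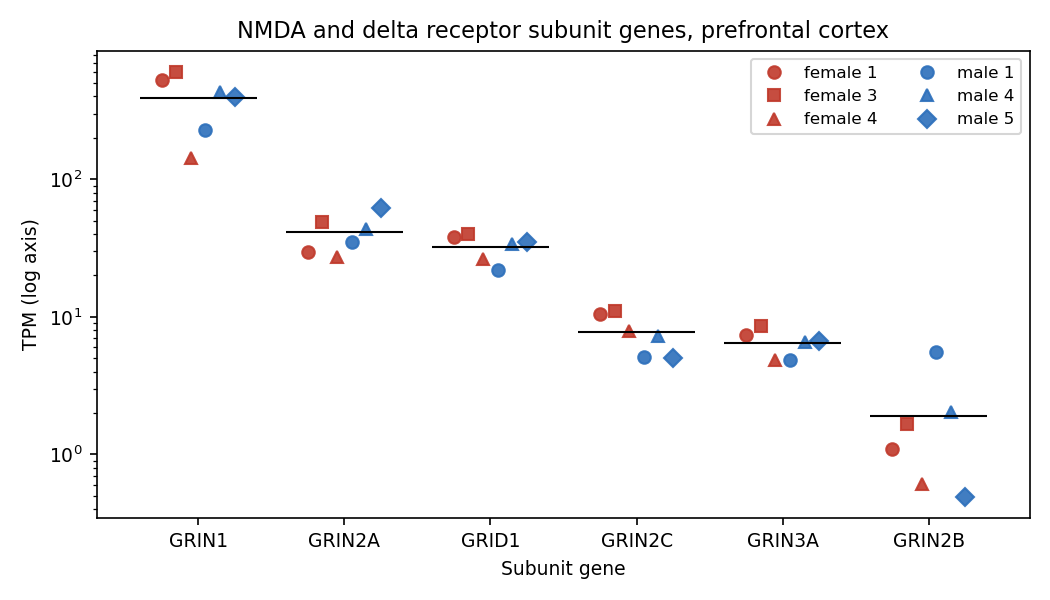
TPM (log axis) of the 6 subunit genes with a row, 1 point per library (females red, males blue, shape by animal number), with a line at the mean over 6 libraries. GRIN1 lies above every other subunit in every library, and GRIN2B has the widest spread, from 0.493 to 5.51 TPM.

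Among the glutamate-binding subunits GRIN2A was the highest. It spans 556178 bp on chromosome 2, at 74649991-75206168 on the plus strand. Its level was 29.5, 49.2 and 27.4 TPM in the females against 34.9, 43.7 and 62.2 TPM in the males (numbers in the same order as for GRIN1), with a mean of 41.1 ± 13.2 TPM (SD, n = 6). Male 5 was highest and females 1 and 4 lowest, with females and males overlapping.

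GRIN2B spans 493463 bp on chromosome 6, at 26520237-27013699 on the plus strand. The named row held 1.09, 1.66 and 0.607 TPM in the females against 5.51, 2.02 and 0.493 TPM in the males. The highest and the lowest library were both male, and they differed 11.2-fold. Its coefficient of variation was 98.4%, the widest of the 6 subunit genes and wider than that of 74.8% of autosomal genes above 1 TPM.

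GRIN2C, known from cerebellar granule cells and, in cortex, from astrocytes and some interneurons, lies on chromosome 15 at 49260573-49278912 on the plus strand. It stood at 10.5, 11.0 and 7.93 TPM in the females against 5.09, 7.24 and 5.04 TPM in the males. Every female lay above every male; the closest were female 4 and male 4.

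GRIN3A, the glycine-binding subunit that lowers calcium entry through the receptor, lies on chromosome 2 at 116361068-116537710 on the plus strand. Its level was 7.34, 8.62 and 4.89 TPM in the females against 4.89, 6.58 and 6.69 TPM in the males. Its range was narrow, 1.76-fold from lowest to highest, and female 4 and male 1 were level at the bottom.

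GRID1, the delta subunit widely expressed in forebrain, spans 638995 bp on chromosome 14, at 85760710-86399704 on the plus strand. It stood at 37.8, 40.0 and 26.3 TPM in the females against 21.8, 33.6 and 35.0 TPM in the males. Its coefficient of variation, 21.6%, was the lowest of the 6 genes, and female 4 and male 1 were again the lowest libraries.

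Ordered by mean TPM, GRIN1 was followed by GRIN2A, GRID1, GRIN2C, GRIN3A and GRIN2B. GRIN1 exceeded GRIN2A in 6 of 6 libraries, by 5.22- to 17.7-fold. GRIN2A and GRID1 were not separated beyond their spread: GRIN2A was higher in 5 of 6 libraries, and the mean difference of 8.72 TPM was smaller than its SD of 11.9. GRID1 exceeded GRIN2C in 6 of 6 libraries, by 3.32- to 6.94-fold. GRIN2C and GRIN3A also lay within their spread, with a mean difference of 1.30 TPM and an SD of 1.89. The named GRIN2B row was below GRIN3A in 5 of 6 libraries, with male 1 the exception.

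The place of GRID1 in that order depended on the scale. The tables also give coverage, the mean read depth over a locus, and by coverage GRID1 stood at 2.04 to 3.62, beside 2.31 to 3.79 for GRIN3A, and was lower than GRIN3A in 3 of 6 libraries. By coverage GRIN2A exceeded GRIN2C in 6 of 6 libraries, and GRIN2C then exceeded GRIN3A in 5 of 6. The ratio of FPKM (another level scaled for length and library size) to coverage was 2.80 for GRID1, while the median over 10497 named genes was 0.295 and the 95th percentile 2.30. The ratio was 0.921 for GRIN2B and 0.190 to 0.553 for the other subunits. GRIN1 stayed first and GRIN2B last on both scales.

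The summed TPM of the NMDA subunits was 572, 673 and 184 in the females against 279, 493 and 472 in the males. GRIN1 made up 77.8% to 91.5% of that sum, so the sum was low in the same libraries as GRIN1, female 4 and male 1. The ratio of the GluN2 sum (GRIN2A, GRIN2B and GRIN2C) to GRIN1 was 0.0785, 0.103 and 0.251 in the females against 0.199, 0.122 and 0.170 in the males. The sexes overlapped in that ratio, and the libraries with little GRIN1 gave the highest values. The ratio was 0.130 to 0.394 with the unnamed locus 4388 bp past the end of GRIN2B added, 0.214 to 0.937 with unnamed or strandless loci inside the genes added and 0.0309 to 0.0694 with the copy GRIN1li1 added to GRIN1. Within the GluN2 sum GRIN2A took 71.9% to 91.8%, GRIN2C 7.45% to 25.5% and GRIN2B 0.728% to 12.1%. These shares rest on the named GRIN2B row: with the locus past its end added, GRIN2B took 37.3% to 44.9% and GRIN2A 43.3% to 55.5%, and with unnamed or strandless loci inside the genes added GRIN2B took 8.79% to 41.7%.

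The level of GRIN1 stood beside that of a gene-like copy, GRIN1li1, which lies on the unplaced contig8241 at 2253-15773 and spans 13521 bp, against 4379 bp for GRIN1 itself. The rule for membership left it out, and contig loci were outside the fit. GRIN1li1 was at 743, 692 and 1019 TPM in the females against 578, 848 and 577 TPM in the males, above GRIN1 in 6 of 6 libraries. In female 4, where GRIN1 was lowest, GRIN1li1 was highest, at 7.13 times GRIN1. In the other libraries the copy was 1.15 to 2.53 times GRIN1.

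The sum of GRIN1 and GRIN1li1 was 1266, 1294 and 1162 TPM in the females against 807, 1281 and 975 TPM in the males. It varied 1.60-fold over the libraries, against 4.22-fold for GRIN1 alone, and its coefficient of variation was 17.6%. Such a sum counts each locus as a transcript of its own, so it is not a level of GRIN1. The sequences of GRIN1 and GRIN1li1 were not compared here, and whether they are copies or parts of the same gene was not tested. If they share sequence, the quantification can divide reads between them, and the level of GRIN1 by itself is uncertain to that extent. Whether the low values of female 4 and male 1 came from such a division was not tested.

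**Figure D2:**
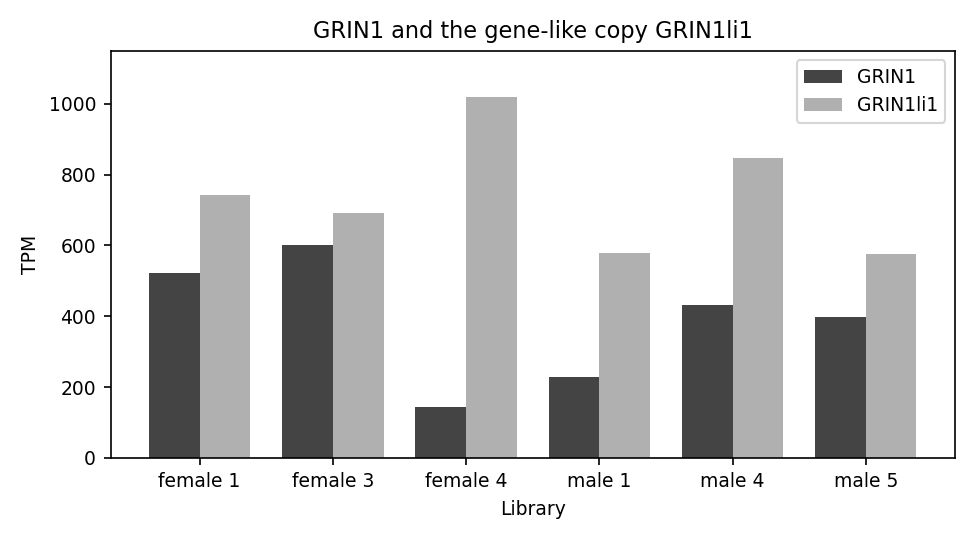
TPM (linear axis from 0) of GRIN1 (dark bars) and its gene-like copy GRIN1li1 (light bars) in each library. The copy is the higher bar in all 6 libraries, and in female 4 the bars stand at 143 and 1019 TPM.

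GRIN3B has no row of that name, but a gene-like copy, GRIN3Bli1, lies on chromosome 27 at 10427662-10443183 on the minus strand. It held 33.8, 24.6 and 46.5 TPM in the females against 22.0, 35.0 and 22.3 TPM in the males. It overlaps TMEM259, a gene on the plus strand with 150.0 to 244 TPM. The library preparation is not described as strand-specific, so reads of the overlapping stretch cannot be assigned to either gene with certainty. GRIN2D has neither a row nor a gene-like copy, and its level was not analysed here.

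The GRIN2A to GRIN2B ratio from the named rows was 27.2, 29.7 and 45.1 in the females against 6.34, 21.6 and 126 in the males. GRIN2A was higher in every library, but the ratio spread 19.9-fold, and both extremes were males. On the log2 scale the ratio was 4.87 ± 1.41 (SD, n = 6), and females exceeded males by 0.36, within the spread (exact two-sided permutation test, p = 0.7, 3 against 3 animals, where 0.1 is the smallest p the design allows). By coverage the ratio was higher still, from 28.1 to 529.6. The scales differ between these rows, with an FPKM to coverage ratio of 0.921 for GRIN2B and 0.220 for GRIN2A.

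GRIN2A varied 2.27-fold over the libraries and the named GRIN2B row 11.2-fold, at a coverage of only 0.126 to 1.47. A locus without name or strand lies 4388 bp beyond the end of GRIN2B, on chromosome 6 at 27018087-27036540, and spans 18454 bp. It was at 27.1, 34.9 and 20.4 TPM in the females against 27.1, 29.0 and 44.3 TPM in the males. Its mean of 30.5 ± 8.19 TPM (SD, n = 6) was far above the named row, by 4.93- to 89.8-fold, and its coefficient of variation was 26.9% against 98.4%. Its coverage, 31.4 to 55.0, was close to that of GRIN2A, 35.8 to 66.7. The tables do not assign the locus to a gene, and whether it belongs to the GRIN2B transcript was not tested.

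GRIN2A stood at 1.09, 1.41 and 1.34 times this locus in the females against 1.29, 1.51 and 1.40 times in the males, a range of 1.38-fold. With the locus added to GRIN2B, a choice made after the values were seen, the ratio was 1.05, 1.35 and 1.30 in the females against 1.07, 1.41 and 1.39 in the males. By TPM GRIN2A was the higher in every library, and the ratio spread 1.34-fold in place of 19.9-fold. By coverage GRIN2A stood at 0.944 to 1.30 times the locus and exceeded it in 5 of 6 libraries, female 1 being the exception. Such a sum counts each locus as a transcript of its own, so it is not a level of GRIN2B. The locus itself did not separate the sexes, with females lower by 0.29 on the log2 scale (exact two-sided permutation test, p = 0.4, 3 against 3 animals).

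**Figure D3:**
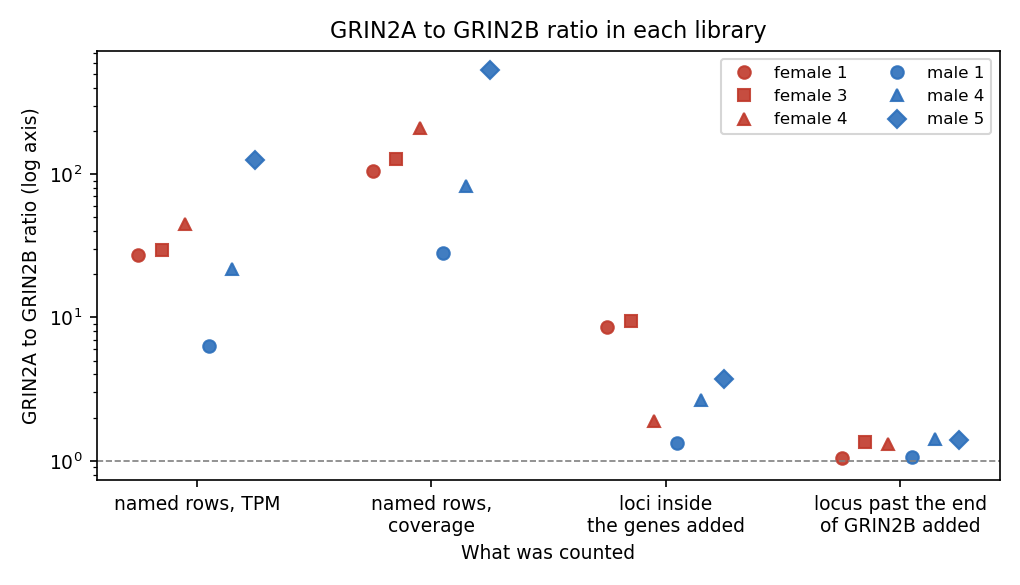
GRIN2A to GRIN2B ratio (log axis) in each library, from the named rows by TPM and by coverage, with unnamed or strandless loci inside both genes added, and with the locus past the end of GRIN2B added; the dashed line marks 1. The points run from 6.34 to 126 for the named rows by TPM, from 28.1 to 529.6 for the same rows by coverage and from 1.05 to 1.41 in the last column.

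The GRIN2B interval also held 25 loci without strand, or 5.07 per 100 kb, while GRIN2A and GRIN3A held 1 each and GRID1, GRIN1 and GRIN2C none. Among 3056 named autosomal genes of at least 100 kb with a mean of at least 1 TPM, 7 held more such loci (median 1) and 41 held more per 100 kb (median 0.279). Their summed level in GRIN2B was 9.56, 10.3 and 42.6 TPM in the females against 70.4, 45.9 and 48.1 TPM in the males. Every male lay above every female, with female 4 just below the lowest male and females 1 and 3 far below, a separation in that direction that 4.97% of autosomal genes showed. This sum was not tested between the sexes. The share of TPM in all loci without strand was 2.30%, 2.55% and 3.33% in the females against 5.16%, 2.67% and 7.88% in the males, highest in males 1 and 5, and its part in the GRIN2B sum was not tested. The number of these loci above 0 was 7, 9 and 11 in the females against 19, 12 and 11 in the males. With unnamed or strandless loci inside both genes added, antisense ones included, the GRIN2A to GRIN2B ratio was 8.53, 9.46 and 1.91 in the females against 1.33, 2.67 and 3.70 in the males.

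**Figure D4:**
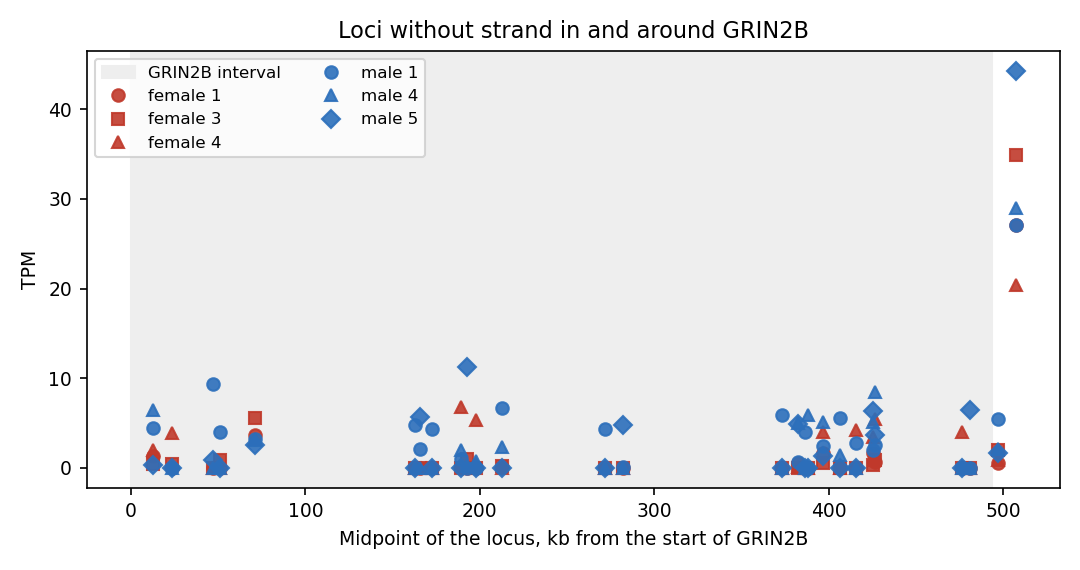
TPM of each strandless locus in and around GRIN2B against the distance of its midpoint from the start of the gene in kb, 1 point per library; the grey band is the GRIN2B interval. Loci inside the band are low or at 0 in most libraries, while the locus 4388 bp past its end lies between 20.4 and 44.3 TPM in all 6.

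The comparison of females with males asked which genes differed in level between the sexes, with differences given as female minus male on the log2(TPM + 1) scale. None of the 6 subunit genes passed an adjusted p of 0.1 in limma (Benjamini-Hochberg over 27996 autosomal genes), and none reached an unadjusted p of 0.05. The fit called 0.0143% of autosomal genes at the adjusted threshold, 4 in all, and 5.04% lay under the unadjusted one. GRIN2C had the largest difference, 0.67 with a standard error of 0.316 (limma, unadjusted p = 0.0636, adjusted p = 0.925). GRIN2A differed by -0.41 with a standard error of 0.288 (limma, adjusted p = 0.925) and GRIN2B by -0.57 with a standard error of 0.632 (limma, adjusted p = 0.940). GRIN1, GRIN3A and GRID1 differed by 0.065, 0.15 and 0.21, each by less than its standard error (limma, adjusted p of 0.997, 0.974 and 0.944).

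GRIN2C was the 1 subunit gene of 6 whose sexes did not overlap, and every female lay above every male in 4.84% of autosomal genes. In no subunit gene did every male lie above every female, which was so in 4.97% of autosomal genes; 9.81% did not overlap in either direction. Its mean was 9.81 ± 1.65 TPM in females against 5.79 ± 1.26 TPM in males (SD, n = 3 each). In bulk tissue, fewer cells of a type and less RNA per cell cannot be told apart. Of the astrocyte markers, 4 of 6 had a row, and their summed level overlapped between the sexes, at 679 to 1102 TPM in the females, with the males at 816 to 1107 TPM. ALDH1L1 differed by 1.09 (limma, adjusted p = 0.925), at 27.3 to 50.8 TPM in the females, with the males at 7.12 to 27.4 TPM, while GFAP and AQP4 differed by -0.25 and -0.026. The oligodendrocyte markers with a row, 3 of 6, summed to 348 to 482 TPM in the females, with the males at 80.7 to 236 TPM. The blood markers with a row, 3 of 6, were higher in every female, and HBQ1 and HBG rose in females (limma, adjusted p of 0.00976 for both). All 4 endothelial markers had a row and summed to 357 to 422 TPM in the females, with the males at 318 to 483 TPM. Every female lay above every male for CLDN5 and FLT1, which differed by 0.83 and 0.25 (limma, adjusted p = 0.925 for both), while PECAM1 and CDH5 were lower in females on average. The part of these cell types in the GRIN2C difference was not tested.

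The GRIN2A to GRIN2C ratio, looked at after the values were seen, was 2.82, 4.46 and 3.45 in the females against 6.85, 6.03 and 12.3 in the males. Every male lay above every female, and females were lower by 1.18 on the log2 scale (exact two-sided permutation test, p = 0.1, the smallest 3 against 3 animals allow). Counted by coverage, the ratio was 5.80 to 9.24 in females and 12.8 to 24.8 in males, also without overlap. Coverage comes from the same reads, so it is not a second test. The summed NMDA subunit TPM differed by 0.041 on the log2 scale (exact two-sided permutation test, p = 1.0), and the GluN2 sum to GRIN1 ratio by -0.34 (exact two-sided permutation test, p = 0.6).

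**Figure D5:**
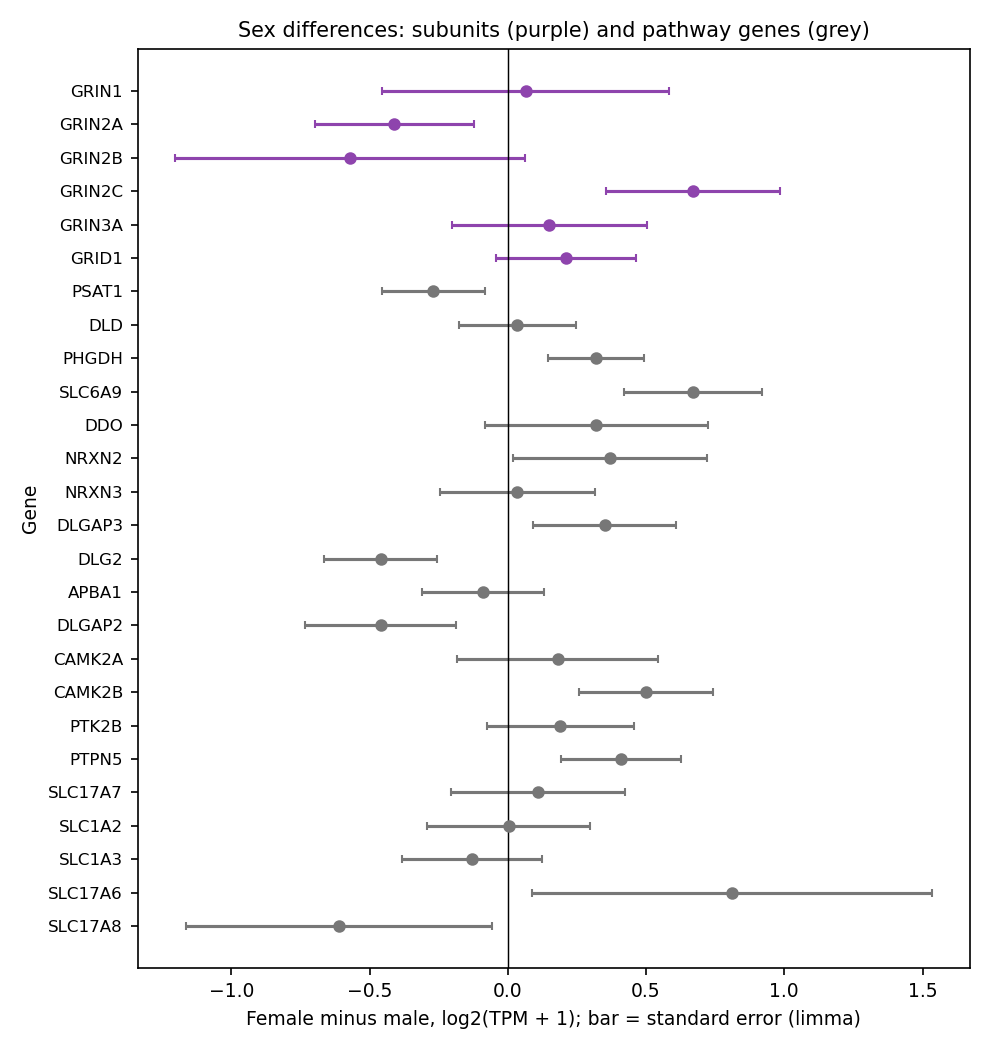
Female minus male difference on the log2(TPM + 1) scale with its limma standard error, for the 6 subunit genes (purple) and named pathway genes (grey). GRIN2C lies at 0.67 and GRIN2B at -0.57, and no gene shown passed the adjusted threshold of 0.1.

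The genes that work with these receptors were read from fixed lists of 72 names beside the 6 subunits, of which 51 had a row and 48 entered the fit. None of the 48 passed the adjusted threshold in limma in either direction, and 2 reached an unadjusted p under 0.05, SLC6A9 among them. Of autosomal genes the fit called 0.00714% in each direction, and 0.134% of X-linked genes in either.

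Glycine and D-serine occupy the co-agonist site of GluN1 and GluN3, and 15 of the 17 genes for their supply and removal had a row, 13 of them tested. The median difference over the list was 0.042, beside -0.031 over all autosomal genes. SLC6A9, the glial glycine transporter that clears glycine around NMDA receptors, was at 79.8, 75.4 and 42.2 TPM in the females against 39.1, 40.4 and 38.6 TPM in the males. Females 1 and 3 were high, and female 4 lay just above the males. Its difference was 0.67 with a standard error of 0.250 (limma, adjusted p = 0.925). PHGDH, the first enzyme of serine synthesis, ran from 94.4 to 113 TPM in the females, with the males at 69.3 to 90.7 TPM. PSAT1, the next enzyme of that path, ran from 134 to 216 TPM and the dehydrogenase DLD from 122 to 188 TPM, each with overlapping sexes. DDO, which degrades the NMDA receptor agonist D-aspartate, held 2.83 to 4.87 TPM, with every female above every male, as in 4.84% of autosomal genes. Its difference was 0.32 with a standard error of 0.404 (limma, adjusted p = 0.945).

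Of 8 ligands and partners of delta receptors 6 had a row and 5 were tested, with a median difference of 0.085. The presynaptic neurexin genes NRXN2 and NRXN3 ran from 104 to 289.6 TPM and from 38.4 to 85.0 TPM, with overlapping sexes. CBLN1, the cerebellin that bridges neurexins to delta receptors, was at 11.7 to 24.6 TPM.

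The scaffolds and carriers that anchor NMDA receptors at the synapse had 11 of 18 names with a row, all 11 tested, and DLG4, which encodes PSD-95, had none. Their median difference was -0.21, and in none of the 11 did the sexes separate. DLGAP3, a scaffold-associated protein gene, ran from 97.6 to 203 TPM and APBA1, an adaptor in receptor transport, from 64.2 to 108 TPM. DLG2, the PSD-93 gene, stood at 73.7 to 113 TPM in the females, with the males at 110.5 to 143 TPM, a difference of -0.46 with a standard error of 0.204 (limma, adjusted p = 0.925). DLGAP2 differed by the same amount with a standard error of 0.272 (limma, adjusted p = 0.925).

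Of 18 genes of signalling downstream and regulation of the receptor, 11 had a row and were tested, with a median difference of 0.064. CAMK2A, the alpha subunit of the calcium/calmodulin-dependent kinase that binds GluN2B, was the highest, from 1094 to 2217 TPM. CAMK2B ran from 316 to 632 TPM and differed by 0.50 with a standard error of 0.242 (limma, adjusted p = 0.925). PTK2B, a tyrosine kinase upstream of Src, ran from 202 to 390.5 TPM, and PTPN5, the phosphatase STEP that dephosphorylates GluN2B, from 101 to 199.6 TPM, each with overlapping sexes.

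Glutamate supply and clearance had 7 of 8 genes with a row, all 7 tested, with a median difference of -0.13. SLC17A7, the main cortical vesicular glutamate transporter, ran from 783 to 1569 TPM, and the astrocytic transporters SLC1A2 and SLC1A3 from 616 to 1169.8 TPM and from 394 to 685 TPM. SLC17A6, the vesicular transporter of thalamus and brainstem, had the largest difference of the list, 0.81 with a standard error of 0.724 (limma, adjusted p = 0.926). It ran from 1.11 to 13.7 TPM with overlapping sexes, and was highest in female 1, female 3 and male 1 as RGS9 was. SLC17A8 held 0.489 to 4.45 TPM.

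The genes whose profiles over the 6 libraries came closest to those of the subunits were found by the root mean square difference of mean-centred log2(TPM + 1) among named genes on chromosomes with a mean of at least 5 TPM, 7616 in the search for GRIN1 and GRIN2A. For GRIN1 they were REEP1 (0.145), MBTPS2 (0.148) and TRIB1 (0.160). REEP1 was at 27.5, 31.4 and 5.36 TPM in the females against 8.61, 18.3 and 17.0 TPM in the males, so it was low in female 4 and male 1 as GRIN1 was. For GRIN2A they were SHANK3 (0.0665), TRIM33 (0.0957) and CIT (0.0984). SHANK3, a postsynaptic scaffold gene, was at 35.1, 61.2 and 36.7 TPM in the females against 42.5, 59.0 and 78.8 TPM in the males. For GRIN2B the nearest were AIF1 (0.252), DPY19L3 (0.278) and MRPL13 (0.308), each highest in male 1. These distances describe 6 libraries, all genes of a library share its depth and processing, and no test was made of them.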

How the data were processed

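Per the labels and the study's methods, poly(A) RNA was sequenced as paired-end reads, which the authors aligned with HISAT2 2.2.1 to TS_3.0 and assembled and merged with StringTie 2.2.1. The deposited tables give TPM, FPKM and coverage per locus and no counts, so DESeq2 and edgeR could not be run and the number of reads behind a value is unknown. TPM sums to between 950532 and 971492 per library over the listed loci.

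Samples were grouped by the sex in their titles, with animals as replicates. A gene was fitted where 3 or more libraries reached 0.1 TPM, with limma 3.58.1 (R 4.3.3, lmFit and eBayes with trend) on log2(TPM + 1), with Benjamini-Hochberg adjustment within 27996 autosomal and 744 X-linked genes and a threshold of 0.1. A fold on this scale is understated for low genes. Contigs and the segments that the study removed (X, 4542400-6144400; chromosome 26, below 3132930) were not fitted. Ratios and sums were compared by exact two-sided permutation tests. The fit was tested on simulated data.

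The members and lists were chosen with earlier results of these data known. Besides the subunits, the text names from each list the 3 genes with the highest mean TPM and the 2 with the largest difference, plus markers beside a result, overlapping or nearby loci and nearest profiles; some genes of this rule are not reported here. CBLN1 and the loci past gene ends were named after their values were seen. Alternatives covered pseudocounts, filters, scalings, FPKM or coverage for TPM, a replicate block and each library left out. No sequence is shown.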

Additional observations from a re-analysis of the deposited data

How the results depend on the processing

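In none of the 16 alternative fits (pseudocounts of 0.1 and 0.01, no filter or 1 TPM, median-ratio or quantile scaling, FPKM, no trend, joint adjustment, replicate block, each library left out) did a subunit or pathway gene pass the adjusted threshold. Each of these fits called only 1 to 7 genes, of 19399 to 52209 fitted. A missing call among the few named genes lies near that share and says little about them. GRIN2A, GRIN2B, GRIN2C and GRIN3A kept their direction in all 16, GRIN2C at 0.51 to 0.84 (limma, adjusted p of 0.581 to 1.0). GRIN2A (-0.41) ranged from -0.66 (without female 3) to -0.19 (without male 5) and GRIN2B (-0.57) from -1.10 (without male 5) to -0.034 (without male 1) with 1 library left out. GRIN3A (0.15) ranged likewise from 0.0015 (without female 3) to 0.36 (without female 4). GRIN1 (0.065) turned under quantile normalization (-0.015) and ranged from -0.31 to 0.72 with 1 library left out: -0.21, -0.31 and -0.22 without female 1, female 3 and male 1, 0.72 without female 4. GRID1 (0.21) ranged from -0.0045 (without male 1) to 0.39.

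The log2 GRIN2A to GRIN2B ratio of 4.87 moved to 6.94 by coverage, 1.83 with loci inside both genes added and 0.32 with the locus past the end of GRIN2B added, the last chosen after seeing the data. Its sex difference of 0.36 was 1.18 with loci inside both genes added and -0.061 with the locus past the end, and ranged from -0.66 (without male 1) to 1.5 (without male 5) with 1 library left out. The NMDA sum differed by -0.10 with loci inside the genes added and from -0.31 to 0.63 with 1 library left out (negative without female 1, female 3 or male 1); its log2 level of 8.67 was 10.23 with the gene-like copies added, also chosen after seeing the data. The log2 GluN2 sum to GRIN1 ratio of -2.81 was -1.13 with loci inside the genes and -4.49 with GRIN1li1 in the denominator, and its sex difference ranged from -0.84 to 0.00088 (without female 1). The cause of these shifts was not tested.

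Animal numbers 1 and 4 occur in both sexes, but they give only 2 pairs, with deviation correlations of -0.0013 and 0.039, and nothing says that they mark a shared litter or day. With these numbers as a block the differences were -0.20 for GRIN1, -1.28 for GRIN2B, 0.069 for GRIN3A, -0.19 for the NMDA sum and 1.58 for the GRIN2A to GRIN2B ratio.

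With 3 animals per sex and no counts, precision is limited by the spread between animals, and a missing call does not show equal levels.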

Other observations

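Inside GRIN2A an unnamed locus on the opposite strand, on chromosome 2 at 75141946-75150530, was at 61.3, 63.7 and 54.0 TPM in females 1, 3 and 4 and at 61.4, 79.7 and 113 TPM in males 1, 4 and 5. It was higher than GRIN2A in 6 of 6 libraries, by 1.30- to 2.07-fold. GRIN2A and this locus were both highest in male 5 and lowest in female 4. Reads of the stretch they share cannot be told apart by strand.

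An unnamed locus on the same strand as GRIN3A lies 5388 bp beyond its end, on chromosome 2 at 116543098-116544188. It held 57.3, 60.1 and 60.8 TPM in the females against 88.7, 46.7 and 70.2 TPM in the males, 6.97 to 18.1 times GRIN3A. Its last bases overlap RNF20 on the opposite strand. A second strandless locus past the end of GRIN2B, 2746 bp away and 1344 bp long, was at 0.595 to 5.50 TPM.

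In the GRID1 interval an unnamed locus of 899 bp on the same strand was at 14.8 TPM in male 1 and at 0 to 1.15 TPM in the other libraries. GRIN1 was followed by NELFB, 1639 bp past its end, and the contig of GRIN1li1 also carried SSNA1 and its gene-like copy SSNA1li1.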
